A study of Mus musculus with 32 samples.

Results

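The 10 genes described here encode proteins of ER-associated degradation (ERAD) and the sensors of the unfolded protein response (UPR) of the endoplasmic reticulum (ER): Sel1l, Syvn1, Edem1, Derl1, Herpud1, Dnajb9, Xbp1, Ern1, Eif2ak3 and Atf6. They were chosen by gene symbol, and all 10 were found once each among the 56748 genes of the count table and were among the 16984 genes tested. Poly(A)-enriched RNA of primary white adipocytes from wild-type mouse subcutaneous fat was sequenced in 32 libraries, 4 in each of 8 groups. Cells carried a scrambled siRNA (scramble), an siRNA against Nfe2l1 (siNfe2l1), an siRNA against Atf3 (siAtf3) or both target siRNAs (siNfe2l1+siAtf3). Each of these siRNA treatments was combined with control treatment or with 400 µM cholesterol carried on methyl-β-cyclodextrin for 6 h. The comparisons address how cholesterol loading, and silencing of either or both transcription factors, bear on these genes. Libraries are labelled as biological replicates, but whether each came from its own mouse or culture is not said, so p-values measure the spread between these libraries. They do not say whether the control treatment contained the carrier, and they give no sex or age of the mice.

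ERAD recognises misfolded proteins in the ER, moves them back to the cytosol and hands them to the proteasome. The UPR senses the same load through the membrane proteins IRE1 (gene Ern1), PERK (Eif2ak3) and ATF6. IRE1 splices the Xbp1 mRNA into the form that encodes an active transcription factor, PERK phosphorylates a translation initiation factor and so favours translation of ATF4, and ATF6 is cut in the Golgi to release a transcription factor. XBP1 and ATF6 raise transcription of chaperone and ERAD genes. NFE2L1 is itself an ER membrane protein whose release depends on ERAD, and ATF3 is a stress-induced member of the ATF family that acts below ATF4. Counts per gene do not separate spliced from unspliced Xbp1 mRNA and do not report protein cleavage or phosphorylation.

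Promoter sequences are shown because the ER stress elements bound by ATF6 and XBP1, with the factor NF-Y at the CCAAT box, are defined by their letters. RefSeq start sites (build GRCm38.p6) were available here for 8 of the 10 genes, all but Derl1 and Atf6, and the window searched ran from 250 bases before to 50 bases after the start on both strands. The 250 bases before the start are printed for 3 genes: Syvn1 and Herpud1, which held a complete element, and Dnajb9, which had the largest rise with cholesterol. Capitals mark the elements named below and every copy of CCACG or its reverse complement CGTGG.
Syvn1, chr19:6046326-6046575, plus strand: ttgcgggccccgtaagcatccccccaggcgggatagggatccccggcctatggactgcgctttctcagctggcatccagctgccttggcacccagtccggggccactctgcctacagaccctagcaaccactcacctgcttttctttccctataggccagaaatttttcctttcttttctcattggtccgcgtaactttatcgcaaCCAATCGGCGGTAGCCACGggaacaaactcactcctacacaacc
Herpud1, chr8:94386179-94386428, plus strand: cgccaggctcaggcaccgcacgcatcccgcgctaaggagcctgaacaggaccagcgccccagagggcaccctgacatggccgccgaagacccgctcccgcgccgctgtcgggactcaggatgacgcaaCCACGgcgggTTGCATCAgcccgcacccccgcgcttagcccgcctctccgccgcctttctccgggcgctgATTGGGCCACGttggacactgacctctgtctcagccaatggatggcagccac
Dnajb9, chr12:44210069-44210318, minus strand: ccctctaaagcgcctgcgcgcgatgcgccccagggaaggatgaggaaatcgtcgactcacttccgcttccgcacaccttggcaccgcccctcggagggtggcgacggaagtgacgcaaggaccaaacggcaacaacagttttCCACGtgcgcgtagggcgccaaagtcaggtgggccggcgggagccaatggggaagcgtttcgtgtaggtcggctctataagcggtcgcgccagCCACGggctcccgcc

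The Syvn1 window held the ER stress element ERSE (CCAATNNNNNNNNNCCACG, beginning at -44 from the start), which 39 of 32851 promoter windows (0.119%) held. The Herpud1 window held the element ERSE-II (ATTGG and CCACG with any base between, at -52), found in 12 of the 32851 windows (0.0365%). The Herpud1 window also held the C/EBP-ATF composite element TGATGCAA on the minus strand at -112, which 294 windows (0.895%) held. The Dnajb9 window held none of these, only CCACG at -108 and -15, and CCACG, which is also the last part of ERSE and ERSE-II, occurred in 32.8% of all windows. The XBP1 element UPRE (TGACGTGG, 0.676% of windows) and the antioxidant response element core TGACNNNGCA (3.04% of windows), the type of site that NFE2L1 binds, were in no window of the 8 genes. A match is a description of letters and not a site shown to be bound.

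Silencing was seen in the targeted genes. In control treatment Nfe2l1 had 486.8 ± 6.02 CPM (reads of the gene scaled to the size of the library; mean ± SD, n = 4 here and below) with scramble and 73.8 ± 8.66 CPM with siNfe2l1, and in cholesterol 814.1 ± 43.3 and 120.0 ± 17.4 CPM. Atf3 had 26.8 ± 2.43 CPM with scramble and 10.1 ± 0.780 CPM with siAtf3 in control treatment, and 397.8 ± 128.9 and 40.9 ± 7.88 CPM in cholesterol. With both siRNAs Nfe2l1 had 114.0 ± 1.91 CPM in control treatment and 156.8 ± 5.67 CPM in cholesterol, 23.4% and 19.3% of the scramble level, against 15.2% and 14.7% with siNfe2l1 alone. With both siRNAs Atf3 had 15.4 ± 1.42 CPM in control treatment and 50.8 ± 2.99 CPM in cholesterol. These were 57.3% and 12.8% of the scramble level, against 37.8% and 10.3% with siAtf3 alone, so silencing of Atf3 was partial in control treatment. Libraries held 23457384 to 33828418 counts. Marker genes moved with cholesterol in scramble cells, and their part in the results was not tested. The 8 adipocyte markers summed to 8725 to 9180 CPM in scramble control and 12020 to 13800 CPM in scramble cholesterol. Of these 8, 7 were called higher and 1 lower. Fibroblast markers went from 23370 to 24690 CPM to 7039 to 8007 CPM. Smooth muscle markers summed to 471.2 to 519.7 CPM in control treatment and 113.2 to 133.0 CPM in cholesterol, with 2 of 6 called higher and 3 lower. Endothelial markers summed to 552.1 to 606.9 CPM and 360 to 439.6 CPM, with 5 of 6 called lower and 1 higher. In siNfe2l1 cholesterol, libraries 1 to 4 scored 34.8, 28.5, 22.7 and 19.5 on the first principal component of all genes. These scores fell step by step from library 1 to library 4, so libraries 3 and 4 were the lowest but not a separate pair. In scramble cholesterol, library 1 scored highest, at 37.5 against 31.1 to 35.9.

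Per kilobase of gene length in scramble control cells, Xbp1 had the highest level of the 10 genes at 84.8 ± 1.69 CPM per kb, followed by Derl1 at 73.0 ± 2.44. Edem1 (31.1 ± 0.821), Dnajb9 (28.0 ± 1.62), Herpud1 (25.8 ± 1.32), Sel1l (22.2 ± 0.394) and Syvn1 (19.2 ± 0.680 CPM per kb) formed a middle range. The sensors were lowest, with Atf6 at 8.59 ± 0.347, Ern1 at 7.91 ± 0.587 and Eif2ak3 at 5.93 ± 0.338 CPM per kb. Only the neighbours Dnajb9 and Herpud1, and Atf6 and Ern1, overlapped between libraries in this order. In scramble cholesterol the order began with Derl1 (129.2 ± 7.39), Dnajb9 (117.0 ± 5.65) and Xbp1 (114.3 ± 7.94 CPM per kb), whose neighbouring ranges overlapped.

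Cholesterol raised 9 of the 10 genes in scramble cells, from 1.19-fold for Edem1 to 4.17-fold for Dnajb9, and Sel1l did not pass the test. Over all genes tested, 32.9% were called higher and 32.3% lower in this comparison (adjusted p under 0.05, edgeR quasi-likelihood test). The 2 groups did not overlap for any of the 9, where 28.1% of all genes were called higher with no overlap. Thus calls were common in both directions, and the median log2 fold change of the 10 genes was 0.63 against 0.00 over all genes. With libraries scaled by their totals alone, the median of all genes became -0.12, 38.9% instead of 50.4% of all calls were higher, and Sel1l was called lower.

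Among the sensors, Ern1 (GRCm39 chr11:106285476-106378678, minus strand, per the count table) showed the steepest change. Its levels in scramble control libraries 1 to 4 were 59.1, 64.0, 70.8 and 64.6 CPM, and in scramble cholesterol 200.1, 212.0, 246.9 and 204.3 CPM. Every cholesterol library lay far above every control library. The log2 fold change was 1.74 ± 0.09 (SE; edgeR adjusted p = 5.90e-17), or 3.34-fold. Atf6 (chr1:170532243-170695340, minus strand) had 80.9, 76.7, 83.0 and 76.5 CPM in control treatment and 143.8, 167.0, 167.5 and 156.7 CPM in cholesterol, a rise of 1.00 ± 0.06 on the log2 scale (edgeR adjusted p = 3.23e-17). Library 1 was the lowest of the cholesterol libraries for Atf6. Eif2ak3 (chr6:70821499-70882229, plus strand) rose less, from 33.7, 37.2, 37.7 and 34.4 CPM to 45.6, 46.8, 48.4 and 43.4 CPM (log2 fold change 0.37 ± 0.05, edgeR adjusted p = 1.83e-07). The 3 sensor mRNAs thus rose by 3.34-fold, 2.00-fold and 1.29-fold in the same libraries, and the confidence intervals of the log2 changes, 1.55 to 1.92 for Ern1, 0.88 to 1.12 for Atf6 and 0.26 to 0.48 for Eif2ak3, did not overlap.

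Xbp1, the target of IRE1 splicing (chr11:5470659-5475893, plus strand), had 270.8, 271.2, 278.1 and 282.1 CPM in control treatment and 408.6, 363.2, 349.5 and 363.5 CPM in cholesterol. All cholesterol libraries lay above all control libraries. Its log2 fold change was 0.43 ± 0.04 (edgeR adjusted p = 2.67e-11).

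Dnajb9 encodes ERdj4, a co-chaperone of BiP that binds IRE1 and ERAD substrates, and it changed most of the 10 (chr12:44252342-44257109, minus strand). Its scramble control libraries had 70.1, 66.3, 75.2 and 74.3 CPM, and its scramble cholesterol libraries 316.6, 290.6, 302.1 and 283.7 CPM. The log2 fold change was 2.06 ± 0.07 (edgeR adjusted p = 5.37e-23). Both groups were tight around their means, with SDs of 4.13 and 14.4 CPM. Herpud1 encodes a ubiquitin-like membrane protein of the ERAD ligase complexes (chr8:95113066-95122005, plus strand). It rose from 58.6, 57.6, 64.5 and 59.8 CPM to 194.3, 152.3, 172.6 and 146.9 CPM (log2 fold change 1.47 ± 0.08, edgeR adjusted p = 7.51e-17), with wider spread among the cholesterol libraries.

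Of the core ligase and channel proteins, Derl1, a derlin of the retrotranslocation step (chr15:57732898-57755844, minus strand), rose from 235.1, 237.0, 252.2 and 246.7 CPM to 463.9, 432.7, 413.5 and 410.3 CPM (log2 fold change 0.82 ± 0.05, edgeR adjusted p = 1.87e-16). Syvn1, which encodes the ubiquitin ligase HRD1 (chr19:6096606-6103742, plus strand), had 90.4 to 98.1 CPM in control treatment and 114.0 to 119.4 CPM in cholesterol (log2 fold change 0.32 ± 0.04, edgeR adjusted p = 6.52e-08). The Syvn1 locus overlaps Mrpl49 on the other strand, which had up to 1452 counts in a library against at least 2179 for Syvn1, and whether counting used strand is not given in the sources used here. Edem1, which takes glycoproteins out of the folding cycle (chr6:108805602-108836317, plus strand), had 192.8 to 203.9 CPM and 224.6 to 255.2 CPM (log2 fold change 0.25 ± 0.04, edgeR adjusted p = 2.94e-06). Sel1l, the adaptor that holds the HRD1 complex together (chr12:91772817-91815931, minus strand), had 186.8, 190.1, 194.2 and 187.4 CPM in control treatment and 143.6, 195.7, 190.5 and 190.7 CPM in cholesterol. Its cholesterol libraries 2 to 4 lay in the range of the controls or just above it, and library 1 lay far below (log2 fold change -0.07, 95% confidence interval -0.21 to 0.06, edgeR adjusted p = 0.326). The Syvn1 and Herpud1 promoters printed above, with a complete ER stress element each, thus belonged to genes with a 1.247-fold and a 2.77-fold rise.

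**Figure D1:**
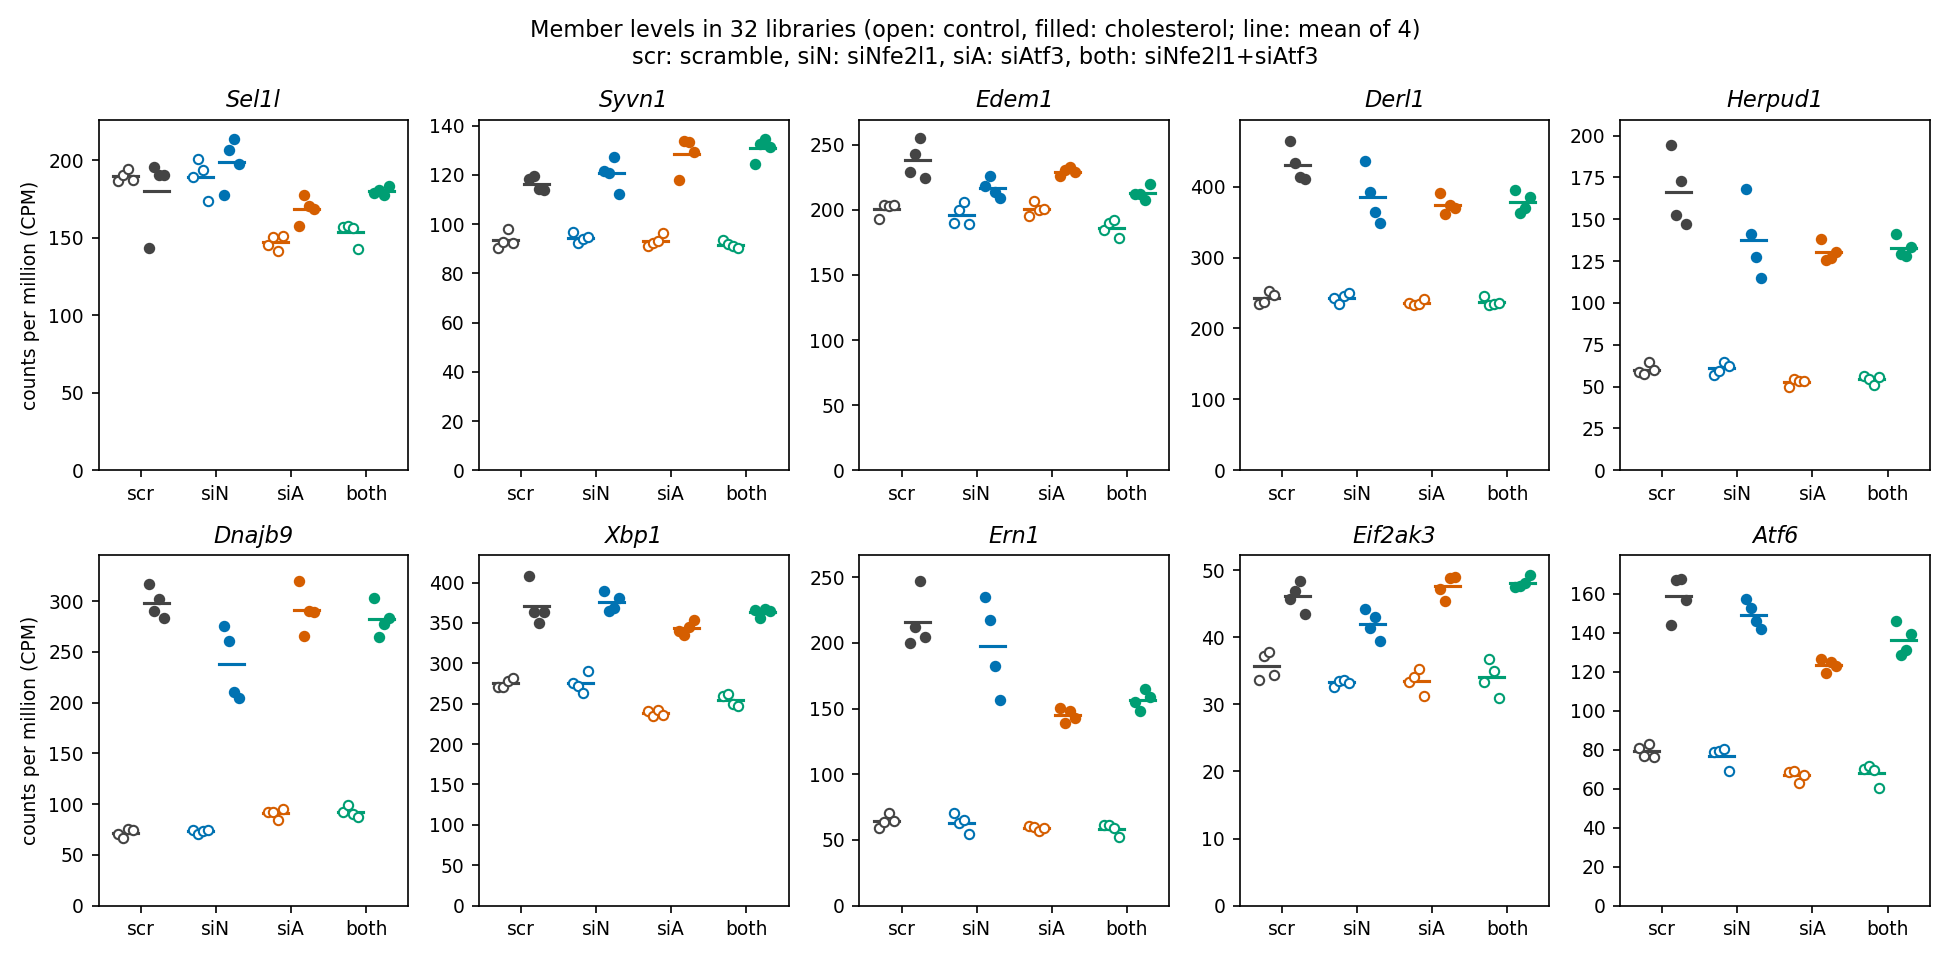
Levels of the 10 genes in CPM (y axis, from 0) in each of 32 libraries, by siRNA (x axis), with control libraries as open and cholesterol libraries as filled points and a line at the mean of 4 libraries. Filled points lie above open points of the same siRNA for every gene except Sel1l with scramble and siNfe2l1, and Dnajb9 rises from 66.3 to 75.2 CPM to 283.7 to 316.6 CPM in scramble cells.

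Other genes of the pathway moved in both directions. Of 30 other ERAD genes, 13 rose and 7 fell in scramble cells, with a median log2 fold change of 0.03, and 10 rose and 13 fell with scaling by library totals. Derl3, another derlin, rose from 3.41 ± 0.419 to 9.73 ± 1.78 CPM (log2 fold change 1.51 ± 0.18, edgeR adjusted p = 1.15e-08), and the ubiquitin-conjugating enzyme gene Ube2g2 rose by 0.83 ± 0.08. Tmub1, a ubiquitin-like membrane protein of ERAD, fell by 0.73 on the log2 scale, and Erlec1, an ER lectin, fell by 0.46. Of the ATPase complex that pulls substrates from the membrane, Nploc4 and Ufd1 rose by 0.35 and 0.16 and Vcp fell by 0.20 on the log2 scale. The log2 changes of Derl2, Edem2 and Edem3, relatives of members, were 0.03, 0.07 and -0.14 and did not pass the test.

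Of 18 ER folding genes, 9 rose and 6 fell (median 0.10), but 2 rose and 8 fell with scaling by library totals. Hspa5, which encodes the chaperone BiP, rose by 1.27 and Manf by 0.63 on the log2 scale, while the disulfide isomerase gene Pdia4 fell by 0.54 and the co-chaperone gene Dnajc3 fell by 0.40. Of 11 genes of the PERK and ATF4 arm, 10 rose and none fell (median 1.86), led by Ppp1r15a, the phosphatase subunit that reverses PERK signalling, at 3.75, and Ddit3, which encodes CHOP, at 3.12. Ddit4 had a log2 fold change of -0.07 and did not pass the test. Of 6 transcripts known to be cut by IRE1, 5 fell (median -0.60): Scara3 by 2.92, Pdgfrb by 0.76, Col6a1 by 0.74, Sparc by 0.47 and Hgsnat by 0.14 on the log2 scale, while Bloc1s1 was at -0.01. Pdgfrb, Col6a1 and Sparc are also fibroblast and matrix genes, and the 7 fibroblast markers tested all fell in the same comparison (median -1.21), as did 7 of 8 macrophage markers (summed level 123.3 to 145.3 CPM in control treatment and 81.1 to 93.0 CPM in cholesterol). None of the fibroblast or macrophage markers was at 0 in all libraries. In bulk RNA, fewer cells of a type and less RNA per cell cannot be told apart, and the part of these cells in the results was not tested. Of 7 genes for ATF6-cutting proteases and ATF6 relatives, Creb3l2 rose by 0.52, and Mbtps1, Creb3l1 and Creb3l3 fell by 0.40, 0.71 and 1.69 on the log2 scale.

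**Figure D2:**
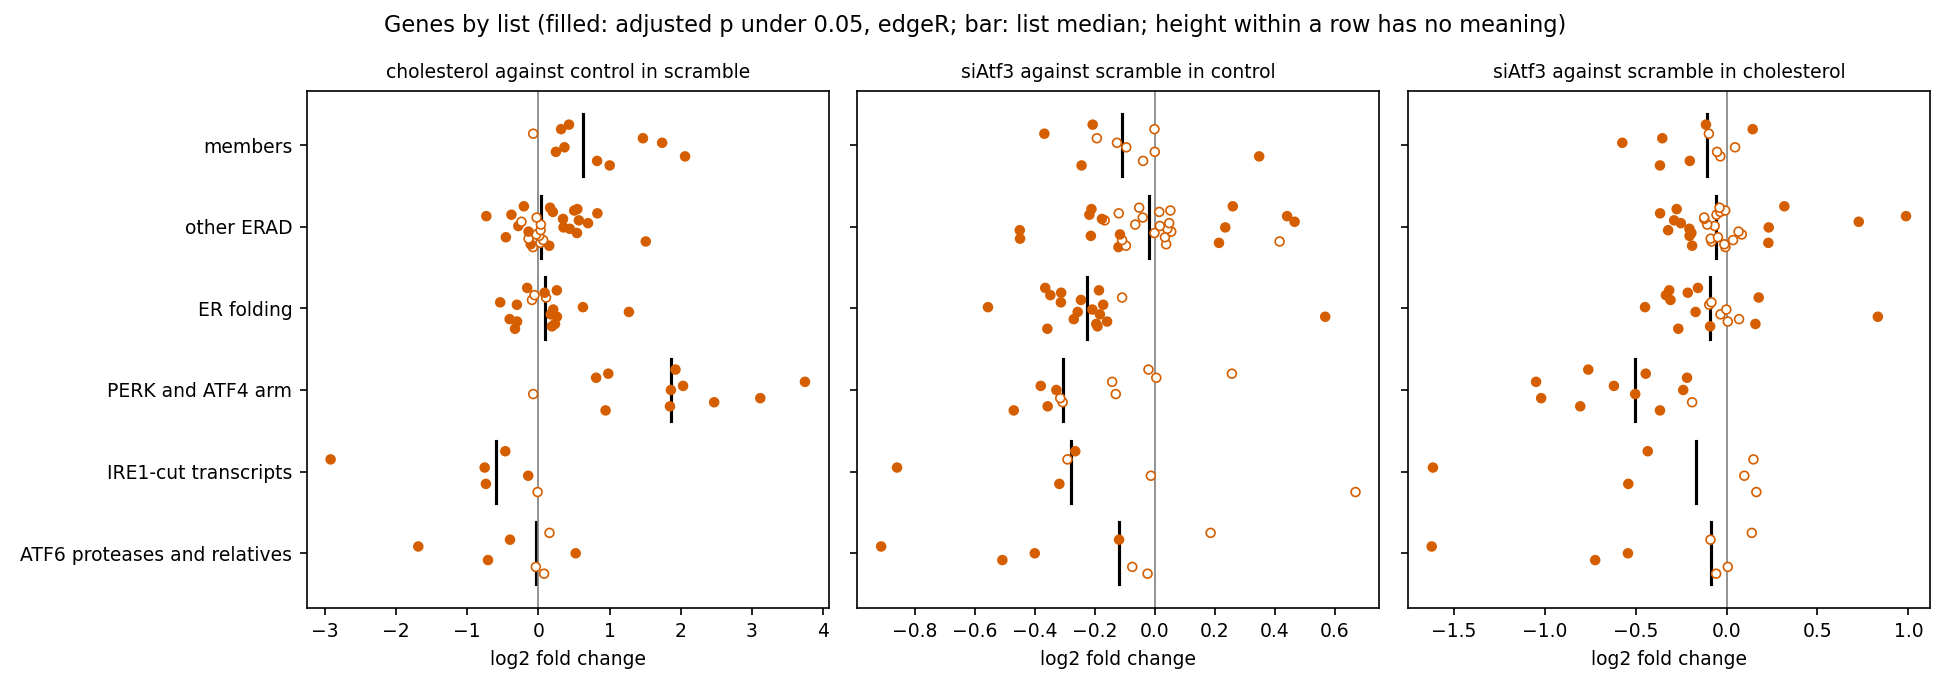
Log2 fold changes (x axis) of the 10 genes and of 5 related gene lists (rows), 1 point per gene, for cholesterol against control in scramble cells and for siAtf3 against scramble in control treatment and in cholesterol. Filled points passed the test, and the bar is the median of the list, which is 1.86 for the PERK and ATF4 arm with cholesterol and -0.23 for ER folding with siAtf3 in control treatment.

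The rise was seen under every siRNA. Cholesterol was called to raise 9 of the 10 genes in siNfe2l1 cells (31.1% of all genes higher, 29.0% lower), 10 of 10 in siAtf3 cells (29.4% higher, 28.6% lower) and 10 of 10 with both siRNAs (29.8% higher, 28.9% lower). The groups did not overlap wherever a member was called, where 25.4%, 26.3% and 27.2% of all genes were called higher with no overlap. In siNfe2l1 cells the Edem1 call (0.14 ± 0.04, edgeR adjusted p = 0.00311) was lost in 5 of 17 alternatives: with library totals (0.06, edgeR adjusted p = 0.201), without the filter on low counts (edgeR adjusted p = 0.214), in a fit of only these groups (edgeR adjusted p = 0.0998) and without siNfe2l1 control library 4 or siNfe2l1 cholesterol library 2 (edgeR adjusted p = 0.0635 and 0.0577). Dnajb9 rose by 1.70 ± 0.07, 1.68 ± 0.07 and 1.62 ± 0.07 on the log2 scale in siNfe2l1, siAtf3 and double-silenced cells (edgeR adjusted p at most 8.67e-21). Ern1 rose by 1.65 ± 0.09, 1.29 ± 0.09 and 1.42 ± 0.09, and Herpud1 by 1.18 ± 0.08, 1.31 ± 0.08 and 1.29 ± 0.08. After Dnajb9, these genes had the largest changes of the 10 in each of these siRNA groups.

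Sel1l, which was not called in scramble cells, rose with cholesterol in siAtf3 cells, from 145.0, 150.5, 141.2 and 150.9 CPM to 157.2, 177.8, 170.3 and 168.4 CPM (log2 fold change 0.20 ± 0.07, edgeR adjusted p = 0.00918). With both siRNAs it rose from 157.1, 157.3, 156.5 and 142.6 CPM to 179.0, 180.6, 177.2 and 183.4 CPM (0.23 ± 0.07, edgeR adjusted p = 0.00242). The groups did not overlap in either case, but neither call held with scaling by library totals (edgeR adjusted p = 0.140 and 0.0565). In siNfe2l1 cells the log2 fold change was 0.07 (edgeR adjusted p = 0.350).

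**Figure D3:**
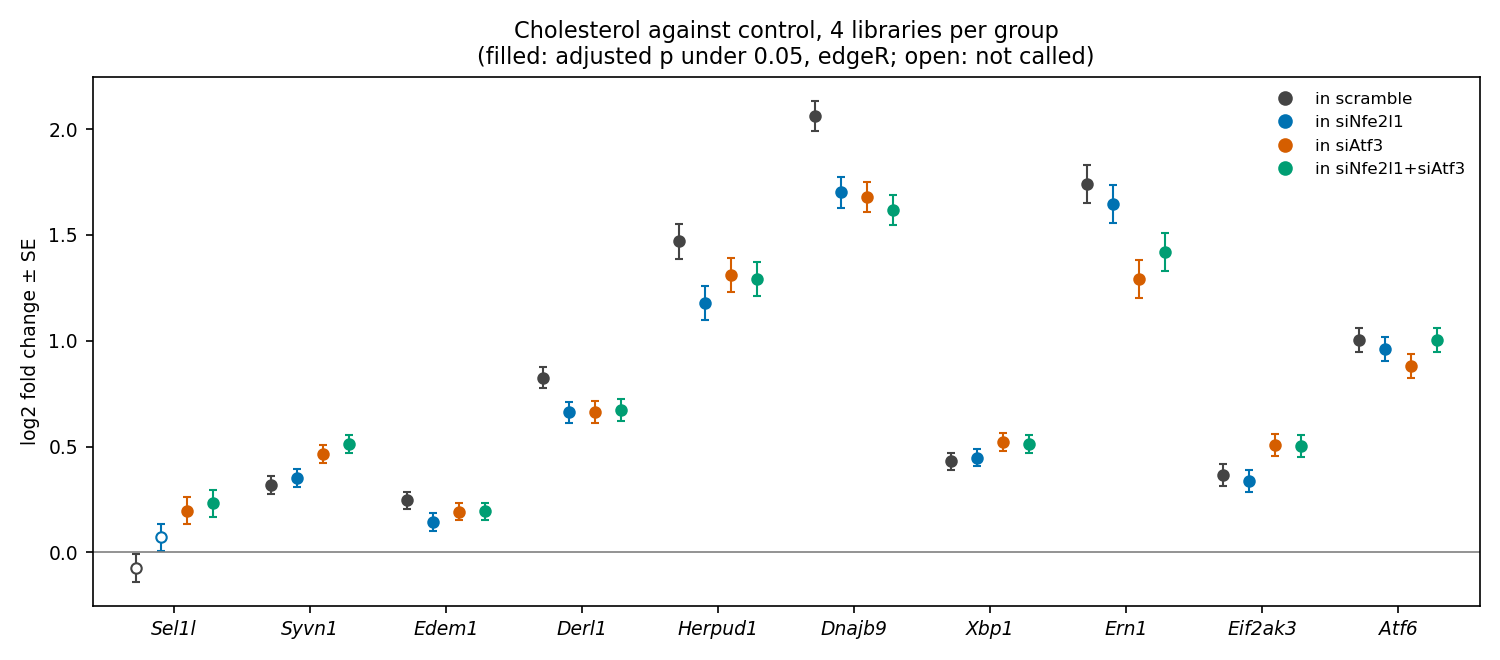
Log2 fold change of each of the 10 genes with cholesterol against control (y axis, with SE) in scramble, siNfe2l1, siAtf3 and siNfe2l1+siAtf3 cells, 4 libraries per group, where filled points passed the test and open points did not. Dnajb9, Ern1 and Herpud1 stand highest, and Sel1l lies near 0, at -0.07 in scramble and 0.23 with both siRNAs.

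The difference of the cholesterol response between siRNAs was tested as an interaction. For siAtf3 against scramble, 3 of the 10 genes passed, where 15.3% of all genes did. The response of Dnajb9 was smaller by 0.38 ± 0.10 on the log2 scale (edgeR adjusted p = 0.00822) and that of Ern1 smaller by 0.45 ± 0.12 (edgeR adjusted p = 0.0148), while that of Sel1l was larger by 0.27 ± 0.09 (edgeR adjusted p = 0.0408). For both siRNAs against scramble, 3 genes passed, where 13.7% of all genes did. Here Dnajb9 differed by -0.44 ± 0.10 (edgeR adjusted p = 0.00313), Sel1l by 0.30 ± 0.09 (edgeR adjusted p = 0.0232) and Syvn1 by 0.19 ± 0.06 (edgeR adjusted p = 0.0318). With library totals, 51.8% instead of 40.5% of all calls were positive for siAtf3 and 60.0% instead of 47.5% for both siRNAs. The Dnajb9 differences passed under every alternative run. Those of Sel1l did not pass without scramble cholesterol library 1, at 0.18 (edgeR adjusted p = 0.10) with siAtf3 and 0.21 (edgeR adjusted p = 0.0512) with both siRNAs. With siAtf3 the Sel1l difference also missed the threshold without scramble control library 3 (0.28, edgeR adjusted p = 0.0509), siAtf3 control library 3 (0.28, edgeR adjusted p = 0.0550) or siAtf3 cholesterol library 2 (0.27, edgeR adjusted p = 0.0659), and with both siRNAs without siNfe2l1+siAtf3 control library 4 (0.28, edgeR adjusted p = 0.0548). That of Ern1 did not pass without scramble control library 1 (-0.38, edgeR adjusted p = 0.0523) or scramble cholesterol library 3 (-0.35, edgeR adjusted p = 0.0591), and that of Syvn1 did not pass without scramble control library 3 (0.18, edgeR adjusted p = 0.0660) or siNfe2l1+siAtf3 cholesterol library 2 (0.20, edgeR adjusted p = 0.0519). Without the filter on low counts neither passed (Ern1 -0.42, edgeR adjusted p = 0.0517, and Syvn1 0.20, edgeR adjusted p = 0.124). In the same tests 5 of the 18 ER folding genes had a positive difference with siAtf3 and 9 with both siRNAs, and none a negative one. For a gene that fell with cholesterol, a positive difference means a weaker fall or a rise. Dnajc3, for example, fell by 0.40 in scramble cells and differed by 0.34 with siAtf3. Of the 11 genes of the PERK and ATF4 arm, 3 and 5 had a negative difference and none a positive one.

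For siNfe2l1 against scramble, none of the 10 genes passed the interaction test of edgeR, where 0.247% of all genes did. At an unadjusted p under 0.05 there were 3, Derl1, Herpud1 and Dnajb9, and the DESeq2 Wald test called 1 and limma-voom 0. Dnajb9 had the largest value, -0.36 ± 0.10 (edgeR adjusted p = 0.0840). Without siNfe2l1 cholesterol library 1, Dnajb9 (-0.455, edgeR adjusted p = 0.00278), Herpud1 (-0.414, edgeR adjusted p = 0.00673) and Derl1 (-0.244, edgeR adjusted p = 0.0140) passed.

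With Nfe2l1 silenced in control treatment, none of the 10 genes passed the test. There was none at an adjusted or an unadjusted p under 0.05 in edgeR, and DESeq2 and limma-voom called 0, where 3.13% of all genes were higher and 2.87% lower. The log2 fold changes lay between -0.10 for Eif2ak3 (95% confidence interval -0.21 to 0.01) and 0.03 for Dnajb9 (-0.11 to 0.18). Among the other ERAD genes, 5 of 30 fell: the ATPase gene Vcp by 0.45, its cofactor genes Nploc4 by 0.50, Ubxn4 by 0.25 and Ufd1 by 0.21 on the log2 scale, and the cytosolic glycanase gene Ngly1 by 0.25. Man1b1, which encodes a mannosidase that marks glycoproteins for ERAD, rose by 0.13. None of the 18 ER folding genes or the 11 genes of the PERK and ATF4 arm was called by edgeR, and 3 and 1 of them had an unadjusted p under 0.05. The DESeq2 Wald test called 1 and 0, limma-voom 0 and 0, and a fit of only these groups 0 and 2. Marker genes moved with this comparison. Macrophage markers had 8 of 8 called higher and a summed level of 176.3 to 242.2 CPM against 123.3 to 145.3 CPM. Adipocyte markers summed to 7581 to 8450 against 8725 to 9180 CPM, with 1 of 8 called higher and 1 lower. Fibroblast markers summed to 26030 to 28350 against 23370 to 24690 CPM, with 2 of 7 tested called higher. The part of these markers in the result was not tested.

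In cholesterol, siNfe2l1 cells had lower levels of 4 of the 10 genes than scramble cells and none higher, where 8.59% of all genes were lower and 11.3% higher. Dnajb9 had 275.9, 261.2, 210.6 and 204.3 CPM with siNfe2l1 against 316.6, 290.6, 302.1 and 283.7 CPM with scramble, a log2 fold change of -0.33 ± 0.07 (edgeR adjusted p = 8.56e-04). Libraries 3 and 4 of siNfe2l1 were the lowest. Herpud1 had 167.9, 141.5, 127.4 and 115.1 CPM against 194.3, 152.3, 172.6 and 146.9 CPM, so its groups overlapped (-0.27 ± 0.08, edgeR adjusted p = 0.0129). Derl1 (-0.16 ± 0.05) and Edem1 (-0.14 ± 0.04) were the other genes called, and their groups overlapped too. Libraries 3 and 4 of siNfe2l1 had the lowest scores of their group on the first principal component. They had lower levels than libraries 1 and 2 for Dnajb9, Herpud1, Derl1, Ern1, Atf6 and also for Atf3. For Atf3 these were 166.4 and 133.7 CPM against 481.2 and 290.0 CPM. Without libraries 3 and 4 none of the 10 genes was called, and Dnajb9 stood at -0.15 (edgeR adjusted p = 0.170). In a fit of only these groups none was called either. Libraries 3 and 4 were the lowest of their group for the 4 genes called, so leaving them out moves these values toward the scramble level. Without siNfe2l1 cholesterol library 1, Ern1 (-0.23, edgeR adjusted p = 0.0402) and Eif2ak3 (-0.17, edgeR adjusted p = 0.0232) were called lower too. Sel1l was then called higher (0.18, edgeR adjusted p = 0.0365). The calls of Derl1 (-0.12, edgeR adjusted p = 0.104) and Herpud1 (-0.19, edgeR adjusted p = 0.0940) were also lost without scramble cholesterol library 1, and that of Edem1 (-0.11, edgeR adjusted p = 0.0684) without scramble cholesterol library 3. With scaling by library totals 72.5% instead of 56.9% of all calls were higher, and 2 members were called lower. Macrophage markers were again higher (8 of 8 called, summed level 146.9 to 159.2 against 81.1 to 93.0 CPM). Adipocyte markers summed to 10860 to 11420 against 12020 to 13800 CPM, with 1 of 8 called higher and 2 lower. Fibroblast markers summed to 8808 to 9385 against 7039 to 8007 CPM, with 3 of 7 tested called higher. Of 6 endothelial markers, 4 were called higher. The part of these markers was not tested.

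Silencing Atf3 in control treatment raised 1 of the 10 genes and lowered 3, where 18.1% of all genes were higher and 18.2% lower. Dnajb9 was the gene that rose, to 92.4, 91.9, 84.8 and 94.9 CPM from 70.1, 66.3, 75.2 and 74.3 CPM, with no overlap (log2 fold change 0.35 ± 0.07, edgeR adjusted p = 1.58e-04). Sel1l was lower, at 145.0, 150.5, 141.2 and 150.9 CPM against 186.8, 190.1, 194.2 and 187.4 CPM (-0.37 ± 0.07, edgeR adjusted p = 2.01e-05). These genes moved in opposite directions in the same libraries, without cholesterol. Xbp1 (-0.21 ± 0.04, edgeR adjusted p = 1.29e-04) and Atf6 (-0.24 ± 0.06, edgeR adjusted p = 8.90e-04) were lower without overlap. Herpud1 did not overlap either (49.6 to 54.4 against 57.6 to 64.5 CPM) but missed the threshold (-0.19 ± 0.08, edgeR adjusted p = 0.0627). Herpud1 was called lower with DESeq2 size factors (edgeR adjusted p = 0.0497) and by the DESeq2 Wald test (adjusted p = 0.0461). A fit of only these groups called Herpud1 (edgeR adjusted p = 2.94e-04) and Ern1 (-0.13, edgeR adjusted p = 0.0145) lower.

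Scaling matters for this comparison. With library totals the all-gene median went from 0.01 to 0.15, and 76.0% instead of 49.8% of all calls were higher. Members then counted 3 higher and 1 lower: Dnajb9 remained higher and Sel1l lower (-0.23), Syvn1 (0.14) and Edem1 (0.14) were called higher, and Xbp1 (-0.07, edgeR adjusted p = 0.155) and Atf6 (-0.11, edgeR adjusted p = 0.128) were no longer called. Of the 18 ER folding genes, 16 fell with siAtf3 in control treatment and 1 rose (8 and 1 with library totals), with a median of -0.23. Manf had a log2 fold change of -0.56, Calr -0.36 and Hspa5 -0.26, and Ero1b, an oxidase of disulfide formation, was the gene that rose, by 0.57. Of the 30 other ERAD genes 5 rose and 8 fell, but 15 rose and 2 fell with library totals, so no direction is given for that list. Summed fibroblast markers were 16460 to 17160 CPM with siAtf3 against 23370 to 24690 CPM with scramble, with 1 of 7 tested called higher and 5 lower. Adipocyte markers had 3 of 8 and endothelial markers 3 of 6 called lower. Macrophage markers had 3 of 8 called higher and 1 lower, and smooth muscle markers 1 of 6 higher and 2 lower. The part of these markers was not tested.

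In cholesterol, siAtf3 cells had lower levels of 5 of the 10 genes than scramble cells and a higher level of 1, where 27.4% of all genes were lower and 23.0% higher. Ern1 differed most, with 150.1, 138.8, 148.5 and 143.0 CPM against 200.1, 212.0, 246.9 and 204.3 CPM (log2 fold change -0.57 ± 0.09, edgeR adjusted p = 1.78e-06). Every siAtf3 library lay below every scramble library. Atf6 had 126.3, 119.1, 124.8 and 122.7 CPM against 143.8, 167.0, 167.5 and 156.7 CPM (-0.37 ± 0.06, edgeR adjusted p = 1.37e-06). Herpud1, with 125.8 to 138.5 CPM against 146.9 to 194.3 CPM (-0.35 ± 0.08, edgeR adjusted p = 3.20e-04), and Derl1, with 361.2 to 390.8 against 410.3 to 463.9 CPM (-0.20 ± 0.05, edgeR adjusted p = 9.66e-04), were lower without overlap. Xbp1 was lower with overlap (-0.11 ± 0.04), and this call was lost in 10 of 16 alternatives. Syvn1 was higher with overlap (0.14 ± 0.04, edgeR adjusted p = 0.00578). Dnajb9, which was higher with siAtf3 in control treatment, had 319.5, 265.7, 290.4 and 289.8 CPM, which overlapped the 283.7 to 316.6 CPM of scramble (-0.03, 95% confidence interval -0.17 to 0.11). Sel1l stood at -0.10 (edgeR adjusted p = 0.220), and without scramble cholesterol library 1 at -0.19 (edgeR adjusted p = 0.00230). Over all alternatives the Sel1l value ran from -0.19 to 0.09, so its sign was not stable.

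With library totals, 71.2% instead of 45.6% of all calls in this comparison were higher, the median of all genes was 0.17, and 4 members were higher and 3 lower: Ern1, Atf6 and Herpud1 kept lower levels (-0.39, -0.18 and -0.16), Syvn1 a higher one, Edem1 (0.13), Dnajb9 (0.15) and Eif2ak3 (0.23) were called higher, and Derl1 (-0.02) and Xbp1 (0.07) were not called. The values of Edem1, Dnajb9 and Xbp1 thereby changed sign. Of the 11 genes of the PERK and ATF4 arm, 10 were lower (8 with library totals), with a median of -0.50, among them Ppp1r15a at -1.05, Ddit3 at -1.02 and Atf4 at -0.80. The ER folding list had 3 genes higher and 9 lower, and 8 higher and 3 lower with library totals. Summed fibroblast markers were 3816 to 4198 CPM with siAtf3 against 7039 to 8007 CPM with scramble in cholesterol, with 6 of 7 tested called lower. Endothelial markers had 4 of 6 and macrophage markers 3 of 8 called lower, and smooth muscle markers 2 of 6 higher and 2 lower. Of the adipocyte markers, 5 of 8 were called lower (summed level 11810 to 14130 CPM against 12020 to 13800 CPM), and the part of these markers was not tested.

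**Figure D4:**
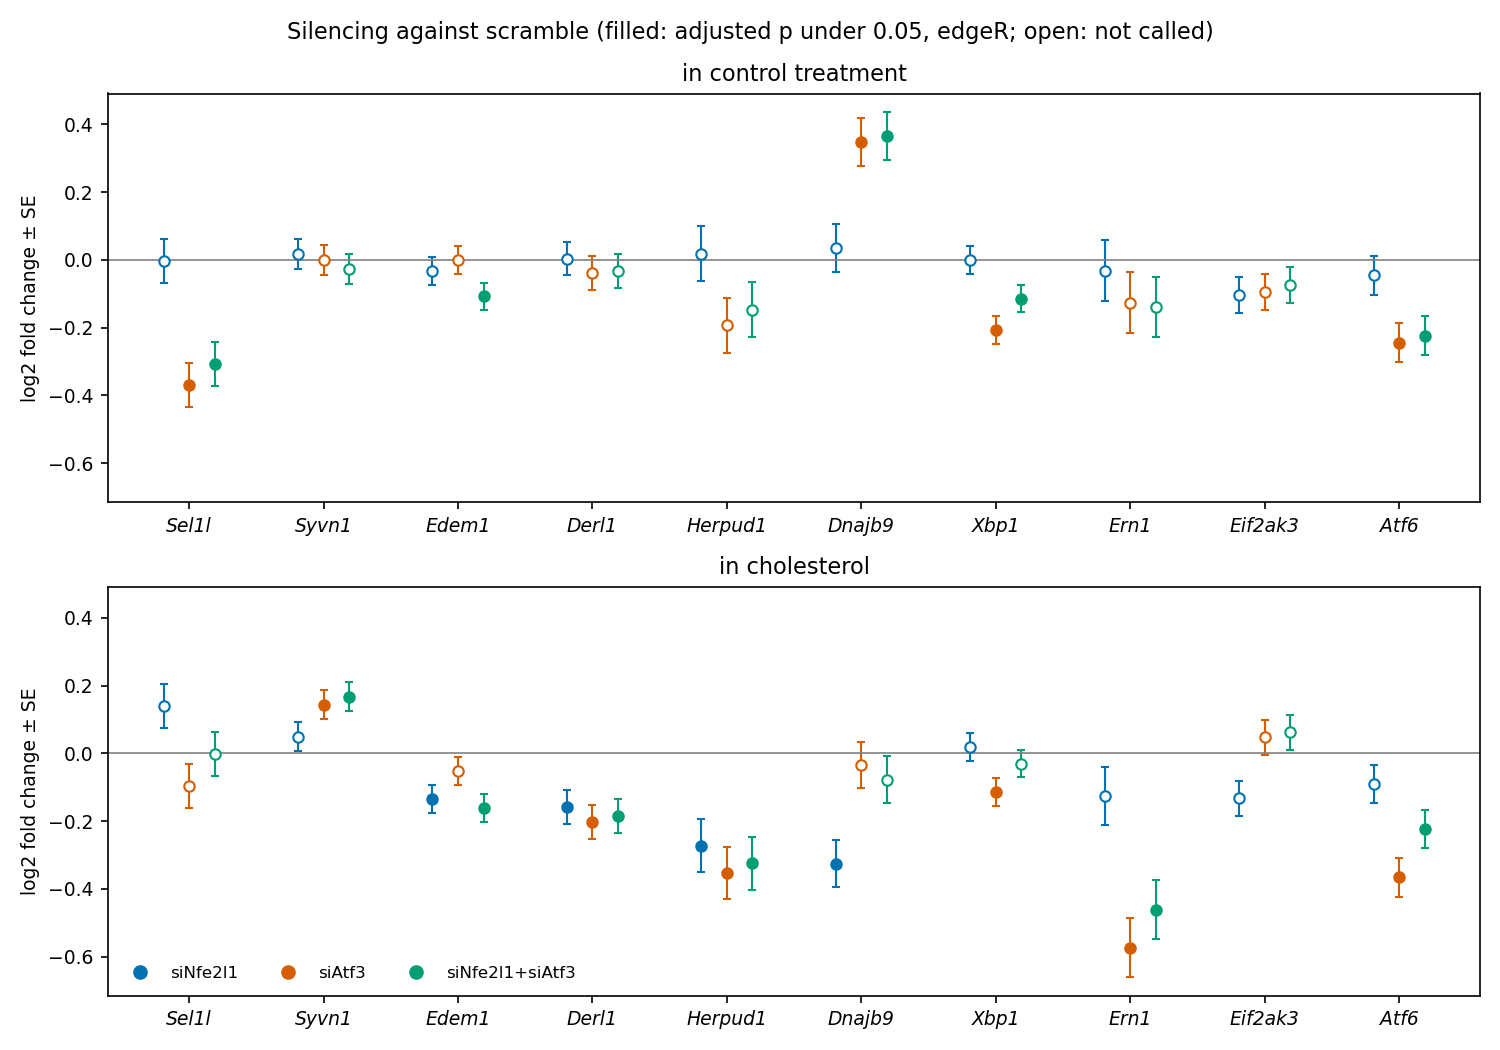
Log2 fold change of each of the 10 genes with siNfe2l1, siAtf3 or both siRNAs against scramble (y axis, with SE), in control treatment (upper panel) and in cholesterol (lower panel), where filled points passed the test. In control treatment Dnajb9 lies at 0.35 and 0.36 with siAtf3 and with both siRNAs and Sel1l at -0.37 and -0.31, and in cholesterol Ern1 lies at -0.57 and -0.46.

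With both siRNAs in control treatment, 1 of the 10 genes was higher and 4 lower, where 12.9% of all genes were higher and 14.3% lower. The comparison shares its scramble libraries with that of siAtf3, so the values of both are given side by side without a test of likeness. Dnajb9 had 91.8, 99.2, 90.3 and 87.1 CPM (0.36 ± 0.07, edgeR adjusted p = 1.34e-04), against 0.35 with siAtf3 alone. Sel1l stood at -0.31 ± 0.07, Atf6 at -0.22 ± 0.06, Xbp1 at -0.11 ± 0.04 and Edem1 at -0.11 ± 0.04. Dnajb9 and Sel1l were called with library totals too, and Atf6, Xbp1 and Edem1 were not. The calls of Xbp1 and Edem1 were lost in 6 and 8 of 15 alternatives. A fit of only these groups also called Herpud1 (-0.14, edgeR adjusted p = 0.0109) and Ern1 (-0.14, edgeR adjusted p = 0.0484) lower. Of the ER folding genes 13 fell and 1 rose (7 and 1 with library totals), and 74.8% instead of 47.5% of all calls were higher under that scaling. Summed fibroblast markers were 18320 to 19260 CPM with both siRNAs in control treatment and 4508 to 5285 CPM in cholesterol. Against scramble, 4 of 7 tested were called lower in control treatment, and 6 lower and 1 higher in cholesterol. Macrophage markers were called higher than in scramble for 7 of 8 genes in control treatment (summed level 213.8 to 239.1 CPM against 123.3 to 145.3 CPM) and for 4 of 8 in cholesterol (101.8 to 110.6 CPM against 81.1 to 93.0 CPM). The part of these markers was not tested.

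In cholesterol with both siRNAs, 1 gene was higher and 5 lower, where 20.8% of all genes were higher and 23.9% lower. Ern1 had 154.8, 148.3, 165.2 and 159.0 CPM (-0.46 ± 0.09, edgeR adjusted p = 5.85e-05), below every scramble library. Herpud1 (-0.32 ± 0.08), Atf6 (-0.22 ± 0.06), Derl1 (-0.19 ± 0.05) and Edem1 (-0.16 ± 0.04) were lower too, and Syvn1 was higher, at 124.4 to 134.8 CPM against 114.0 to 119.4 CPM (0.17 ± 0.04, edgeR adjusted p = 0.00181). The groups of Atf6 overlapped. With library totals 72.5% instead of 46.6% of all calls were higher, Ern1 and Herpud1 stayed lower and Syvn1 higher, Atf6, Derl1 and Edem1 were not called, and Xbp1 (0.12) and Eif2ak3 (0.21) were called higher. Eif2ak3, the PERK gene, was not called by the edgeR fit over all libraries in any of the 6 comparisons of a silenced group with scramble, at log2 fold changes from -0.13 to 0.06. For siNfe2l1 in cholesterol it was called lower with the replicate block (edgeR adjusted p = 0.0460), by the DESeq2 Wald test (adjusted p = 0.0388) and without scramble cholesterol library 4 or siNfe2l1 cholesterol library 1 (edgeR adjusted p = 0.0275 and 0.0232).

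Across the 8 groups the members fell into different patterns. Measured as the root mean square difference of log2 changes from scramble control over 7 groups, the closest pair was Syvn1 and Eif2ak3 (0.09), then Xbp1 and Eif2ak3 (0.11), and the farthest was Sel1l and Dnajb9 (1.57). Among 10894 other protein-coding genes with a mean log2 CPM of at least 2, the gene closest to Ern1 was Eea1 (0.06), to Herpud1 Cry1 (0.07), to Dnajb9 Arhgap44 (0.11), to Atf6 Ywhag (0.05) and to Derl1 Npc1 (0.05). Among the 3 genes closest to Sel1l was Ficd (0.06), which encodes an ER enzyme that modifies BiP. For Syvn1 it was Atf2 (0.03), for Edem1 Eml2 (0.04), for Xbp1 Fpgs (0.05) and for Eif2ak3 Pelo (0.05). The distance is not scaled to the size of a gene's change, so larger changes tend to give larger distances. The closest gene to Dnajb9 lay farther off than that of any other member. The distance of Dnajb9 from no change was also the largest (1.49). For Edem1 the distance from no change was 0.14, against 0.04 to its closest gene.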

How the data were processed

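Gene counts of poly(A) RNA-seq were used as deposited by the authors, whole numbers without normalization. The tools named for them, per the submitters' processing notes, are fastp, HISAT2 2.0.5 and featureCounts 1.5.0-p3, with the build GRCm39. Strand use and the treatment of reads with several alignments are not given in the sources used here. The letter C in column names was read as cholesterol.

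Genes were filtered with filterByExpr (minimum count 10, minimum total 15), scaled by TMM factors (0.886 to 1.09) and fitted over all 32 libraries with the robust quasi-likelihood model of edgeR 4.0.16 in R 4.3.3 (24 residual degrees of freedom). 10 contrasts of 2 groups and 3 interactions were tested with Benjamini-Hochberg adjustment over 16984 genes, and a gene was called at an adjusted p under 0.05. CPM uses TMM-scaled library sizes, and CPM per kb divides by the gene length of the deposited table. The procedure was run on simulated counts in which a small set of genes was changed in siNfe2l1 control only. Such data cannot show how it performs where many genes change or which scaling is right. Members and lists were chosen with earlier results of these data known. Named from the lists were the 2 highest and 2 lowest called genes of each, and genes printed beyond these were chosen after their values were seen. Not every gene so named is reported here.

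Alternatives in scaling, filter and test were DESeq2 size factors, library totals, no filter, DESeq2 1.42.0 and limma-voom (limma 3.58.1). Further ones were a block for the replicate number and fits restricted to the groups of a contrast. Others left out each library in turn, siNfe2l1 cholesterol libraries 3 and 4, or scramble cholesterol library 1 with siNfe2l1 control library 4. Replicate numbers were checked for pairing by correlating deviations of same-numbered libraries. Only for siAtf3 against scramble in cholesterol did every pair exceed 0.1 (0.17 to 0.36), and there the block changed no count of members called. For siNfe2l1 against scramble in cholesterol, pairs 1 to 4 had 0.514, 0.135, -0.112 and 0.550, and there the block added Eif2ak3. Library 1 also scored highest on the first principal component in each cholesterol group (37.5, 34.8, 29.1 and 27.1). What same-numbered libraries share was not tested. No library was a copy of another: in the 48 pairs within groups, chi-square divided by its degrees of freedom was 2.62 to 40.5.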

Additional observations from a re-analysis of the deposited data

Results flagged for a closer look

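In 4 of 80 sets of 4 libraries (10 genes in 8 groups), 1 library lay far from the other three by Dixon's criterion, and chance gives such a set about 1 time in 20. Sel1l had 143.6 CPM in scramble cholesterol library 1, against 190.5 to 195.7 CPM in the others. It had 142.6 CPM in siNfe2l1+siAtf3 control library 4, against 156.5 to 157.3 CPM. Edem1 had 192.8 CPM in scramble control library 1, against 202.8 to 203.9 CPM. Atf6 had 68.97 CPM in siNfe2l1 control library 4, against 78.6 to 80.3 CPM.

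The cholesterol response differed from that of scramble cells by the interaction test in 6 cases. With siAtf3 the log2 differences were 0.271 for Sel1l, -0.382 for Dnajb9 and -0.447 for Ern1. With both siRNAs they were 0.305 for Sel1l, 0.194 for Syvn1 and -0.444 for Dnajb9. The Sel1l differences did not pass without scramble cholesterol library 1 (0.18 and 0.21), nor without some other single libraries.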

How the results depend on the processing

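Of 130 results (10 genes in 13 contrasts), 69 were called, and 48 of these kept the call under every alternative run. Of 2310 alternative values 2207 kept the call (called in the same direction, or not called), 69 lost a call, 28 gained one, and 6 had the opposite sign with a call in the result or in the alternative. A further 72 had the opposite sign with no call in either, all for results of at most 0.126 in size, and count among the 2207. The 6 all arose with library totals: with siAtf3 against scramble, Syvn1 was 0.136 and Edem1 0.138 in control treatment, and Edem1 0.134, Dnajb9 0.153 and Xbp1 0.074 in cholesterol, and with both siRNAs in cholesterol Xbp1 was 0.122. That scaling moves the median of all genes in these comparisons, and which scaling is right was not tested.

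For siNfe2l1 in cholesterol, 4 members were called: 2 with library totals, 0 in a fit of only the groups compared, 0 without siNfe2l1 cholesterol libraries 3 and 4, 2 without scramble cholesterol library 1 and siNfe2l1 control library 4, and 2 to 7 when 1 library was left out. With both siRNAs in control treatment 5 were called: 2 with library totals, 3 without the filter, and 3 to 5 when 1 library was left out. The siNfe2l1 interaction gave 0, but 1 without the filter, 1 with the DESeq2 Wald test, and 0 to 3 when 1 library was left out. The causes were not tested. With the replicate number as a block, 5 members were called for siNfe2l1 in cholesterol instead of 4 (Eif2ak3 added, edgeR adjusted p = 0.0460), and no other count of members changed. Over all genes, siNfe2l1 in cholesterol gave 3382 calls, and 645 in a fit of only those groups. The siNfe2l1 interaction gave 42, against 344 with DESeq2, 72 without the filter, 2 with only the groups compared and 143 with the block.

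With 812 or more counts for every member in every library, depth does not limit their detection. The number of 4 libraries a group limits the precision.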
